A study of Rattus norvegicus with 6 samples.

Results

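Synaptotagmins are membrane proteins of secretory vesicles and the plasma membrane that carry paired C2 domains. In the classical members, calcium entering the cell binds these domains, which then act on lipids and SNARE proteins and trigger fusion of the granule with the plasma membrane. Insulin granules of β-cells use this mechanism, and Syt7 is the best known calcium sensor for it in mice. Not every synaptotagmin is a sensor. Syt4, Syt11 and Syt13 lack residues that other members need to bind calcium in one or both C2 domains.

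The 8 genes described here, Syt7, Syt5, Syt9, Syt1, Syt3, Syt4, Syt11 and Syt13, were taken by gene name from 28656 names in the transcript table of rat islet cells, where they have 17 of 40771 transcripts. All 8 passed the filter on low values, which left 13927 names with 1 or more units of relative abundance in at least 3 libraries. Circular RNAs hosted by the same genes were taken from a separate mouse islet table. Dissociated islet cells of 12-week-old Wistar rats were transfected with a gapmeR against ci-Ins2, a circular RNA made from the second intron of Ins2 (n = 3 libraries), or with a control gapmeR (n = 3 libraries), and RNA was taken after 48 h. A gapmeR is an antisense oligonucleotide through which RNase H cleaves the RNA that it pairs with. Both groups received an oligonucleotide and the transfection reagent, and no untransfected cells were sequenced among these libraries. The cells are the mixed cells of the islet and not β-cells alone, so that fewer cells of a type and less RNA per cell cannot be told apart. The names Syt5 and Syt9 have been used for each other in the rat: RefSeq lists SytIX as a synonym of Syt5 and Sytv as a synonym of Syt9. The symbols here are those of the deposited table.

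The oligonucleotides are shown 5′ to 3′ because they are the only difference in treatment between the groups. They are in lower case, with no part marked.
ci-Ins2 gapmeR: gcttacagacacatag
control gapmeR: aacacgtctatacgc

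A promoter window, 250 bases before to 50 bases after the annotated start, was found for 5 of the 8 genes in RefSeq (GRCr8), namely Syt1, Syt3, Syt4, Syt9 and Syt11. That of Syt4 is shown, since Syt4 is one of the genes that changed. It lies at chr18:23320814-23321113 on the minus strand. The capitals mark GGTGCTG, the reverse complement of CAGCACC, which forms the core of the left portion of the RE1 element bound by the repressor REST.
Syt4 promoter: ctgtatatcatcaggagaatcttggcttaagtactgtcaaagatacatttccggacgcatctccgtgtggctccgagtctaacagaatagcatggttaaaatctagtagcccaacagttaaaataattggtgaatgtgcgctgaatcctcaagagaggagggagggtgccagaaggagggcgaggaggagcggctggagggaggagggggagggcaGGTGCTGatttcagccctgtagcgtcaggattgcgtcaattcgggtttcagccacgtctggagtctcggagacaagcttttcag
On either strand, CAGCACC was in the window of Syt4 alone among the 5 genes, and in 6.78% of all 33469 windows. The core of the right portion, GGACAGC, was in none of the 5 windows. The GC box GGGCGG was in those of Syt1, Syt3, Syt9 and Syt11 and not in that of Syt4, and 33.1% of all windows hold it. The cAMP response element TGACGTCA, the E-box CACGTG and TATAAA were in none of the 5. These motifs were chosen after the values were seen, and a match of letters is a description of the window.

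The values are relative transcript abundances, taken to be corrected for transcript length as TPM values are, since no source names the unit. Levels compared between genes rest on this reading. The deposited numbers, after division by 10 so that each library has the total that TPM values have, were added up over the transcripts of each gene and are given as abundance units. They hold no read counts, so the depth behind each value is unknown. Values of single libraries, means and the overlap of groups are given before scaling between libraries. Size factors between 0.962 and 1.035 scaled the libraries for the test, which used limma with log2(value + 1) of all 13927 names and adjusted the p-values over them. Of these, 488 (3.5%) were lower and 141 (1.01%) higher in ci-Ins2 gapmeR cells at an adjusted p under 0.05. The lower names were 77.6% of those called, and 67.0% (360 lower and 177 higher) without scaling. The libraries with the same number in both groups came from the same animal. The test has no term for the animal, and the value with it (the blocked value) is given where it changes a call. With it 1428 names (10.3%) were lower and 729 (5.23%) higher. The β-cell markers measured summed to between 181224 and 185689 units in ci-Ins2 gapmeR cells, against 184807 to 187016 in control gapmeR cells. Most of that sum is Ins1, Ins2 and Iapp, so it says little of the other markers. Of the 9 tested none passed (2 were higher in the blocked fit). Log2 fold changes were below 0 for 7 of the 9 and above 0 for Slc30a8 and Ucn3.

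In the ci-Ins2 gapmeR cells Syt7 and Syt4 were lower, no synaptotagmin was higher, and 6 of the 8 did not pass the test. Of the 5 classical calcium-binding members, Syt7, Syt5, Syt9, Syt1 and Syt3, 1 was lower. Of the 3 members without full calcium binding, Syt4, Syt11 and Syt13, 1 was lower. Over all names tested 3.5% were lower, which is the background for the count of 2 of 8. With the animal as a block Syt1, a calcium-binding member, was lower as well, which made 3 of 8 against 10.3% of all names. The median log2 fold change of the 8 genes was −0.06, against 0.00 over all names tested, with 4 genes below 0 and 4 above. Since the study itself names Syt4 and Syt7 from the same libraries, their direction is not shown independently here. The study also reports altered Syt4 and Syt7 mRNA by qPCR of rat islet cells. In human islet cells it reports lower SYT7 with either gapmeR against ci-INS, the human form. Those qPCR values are not part of these data.

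Syt7 was the most abundant of the 8 genes in each library. It had 519, 515 and 493 abundance units in ci-Ins2 gapmeR cells, against 606, 614 and 618 units in control gapmeR cells. All 3 libraries with the ci-Ins2 gapmeR were below all 3 controls, and the gap between the groups was wider than the range within either. The mean was 509 ± 13.9 units with the ci-Ins2 gapmeR and 613 ± 5.73 units with the control gapmeR (SD, n = 3 each). This gave Syt7 a log2 fold change of −0.31 (standard error 0.048, limma, adjusted p = 0.017), with a 95% interval from −0.43 to −0.20. Within the animals the log2 differences of Syt7 were −0.25, −0.32 and −0.37, so that each animal showed the decrease. The decrease kept its size when 1 library was left out (−0.34 to −0.29), but its adjusted p was then between 0.043 and 0.084 and passed in 1 of 6 fits, that without control replicate 1.

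Syt4 is a synaptotagmin of dense-core granules whose first C2 domain does not bind calcium. In mice it has been tied to the calcium sensitivity of insulin secretion as β-cells mature. It had 146, 137 and 139 abundance units in ci-Ins2 gapmeR cells, against 169, 161 and 192 units in control gapmeR cells. The groups did not overlap, and control replicate 3 stood above the other controls. The means were 140.5 ± 4.92 units with the ci-Ins2 gapmeR and 174 ± 15.9 units with the control gapmeR (SD, n = 3 each). For Syt4 the log2 fold change was −0.35 (standard error 0.071, limma, adjusted p = 0.045), with a 95% interval from −0.52 to −0.18. Within the animals the log2 differences of Syt4 were −0.24, −0.30 and −0.51. This call lies close to the threshold: it was lost in each of the 6 fits without 1 library (adjusted p from 0.073 to 0.14, log2 fold change from −0.39 to −0.27), and without scaling (adjusted p = 0.075, log2 fold change −0.30).

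**Figure D1:**
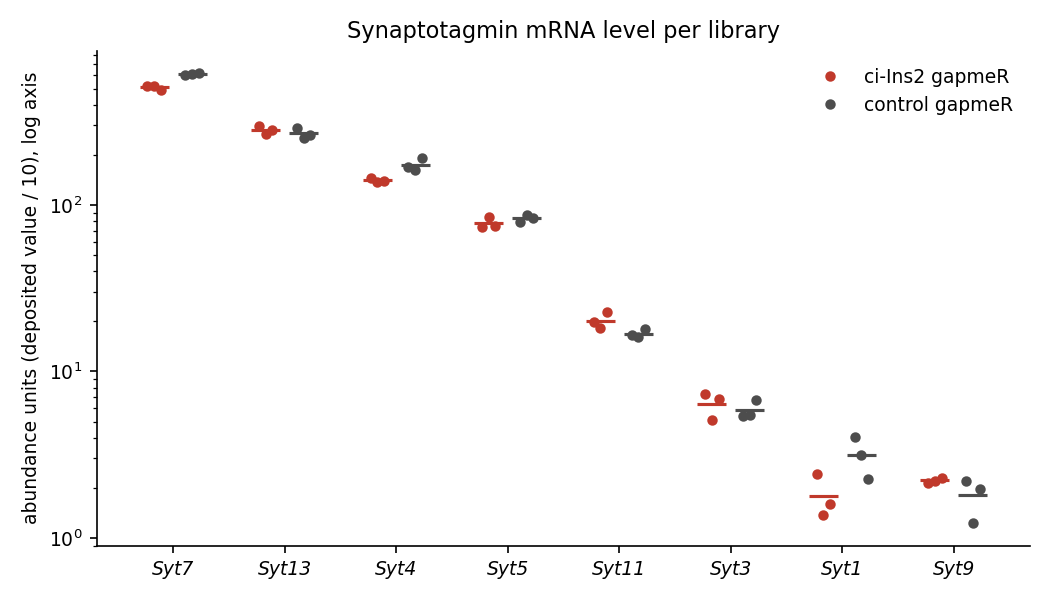
Abundance of the 8 synaptotagmin genes in each library, on a log axis in abundance units, ordered by level. Red points are the 3 ci-Ins2 gapmeR libraries and grey points the 3 control gapmeR libraries, with a line at each mean. In these values before scaling, Syt7 and Syt4 are lower in red with no overlap (509 against 613 and 140.5 against 174 units). Syt11 is higher in red with no overlap before scaling but did not pass the test.

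Syt1, the fast calcium sensor of synaptic vesicles, was scarce in these cells. It had 2.41, 1.37 and 1.60 abundance units in ci-Ins2 gapmeR cells, against 4.01, 3.16 and 2.26 units in control gapmeR cells. The groups overlapped between ci-Ins2 replicate 1 and control replicate 3. The log2 fold change of Syt1 was −0.60 (standard error 0.19), the most negative of the 8, with a 95% interval from −1.04 to −0.15, and it did not pass over all names (limma, adjusted p = 0.14). Within the animals its log2 differences were −0.57, −0.86 and −0.36. Once the animal was a block, Syt1 passed (limma, adjusted p = 0.025), which made 3 of 8 genes lower against a background of 10.3%, and none higher against 5.23%. The value depends on the constant that is added before the logarithm, and the log2 fold change was −0.82 with a constant of 0.1 and −0.27 with a constant of 5.

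Syt5, a calcium-binding member found on dense-core granules, had 73.2, 85.0 and 74.4 abundance units in ci-Ins2 gapmeR cells, against 78.4, 87.2 and 83.2 units in control gapmeR cells. The groups overlapped, although each ci-Ins2 gapmeR library was below the control of the same animal. Syt5 had a log2 fold change of −0.14 (standard error 0.087, limma, adjusted p = 0.42), with a 95% interval from −0.35 to 0.07, so that neither no change nor a decrease as large as that of Syt7 lies outside it. The blocked adjusted p of Syt5 was 0.065.

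Syt9 and Syt3 are further calcium-binding members. Syt9 was the least abundant of the 8 in control gapmeR cells, with 2.15, 2.20 and 2.30 units in ci-Ins2 gapmeR cells against 2.20, 1.23 and 1.98 units in control gapmeR cells. Syt3 had 7.28, 5.08 and 6.83 units in ci-Ins2 gapmeR cells, against 5.41, 5.50 and 6.77 units in control gapmeR cells. For both genes the groups overlapped and the animals did not all move one way. Log2 fold changes were 0.19 for Syt9 (95% interval −0.14 to 0.51, limma, adjusted p = 0.50) and 0.06 for Syt3 (95% interval −0.27 to 0.38, adjusted p = 0.86).

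Syt11 is the closest relative of Syt4, and Syt13 is a divergent member that in mice takes part in islet formation. Syt11 had 19.7, 18.1 and 22.6 abundance units in ci-Ins2 gapmeR cells, against 16.6, 16.2 and 17.9 units in control gapmeR cells. Before scaling, all 3 libraries with the ci-Ins2 gapmeR were above all 3 controls, the lowest of them by a small margin. Scaling reverses the order of ci-Ins2 replicate 2 and control replicate 3 (size factors 1.006 and 0.980), so that the groups then overlap. Syt11 had a log2 fold change of 0.20 (standard error 0.091, limma, adjusted p = 0.29), with a 95% interval from −0.02 to 0.41, and the blocked adjusted p was 0.066. Syt13, second in abundance, had 299, 266 and 281 units in ci-Ins2 gapmeR cells, against 290.4, 252 and 264 units in control gapmeR cells. The groups overlapped, and the log2 fold change of Syt13 was 0.03 with a 95% interval from −0.11 to 0.16 (limma, adjusted p = 0.84). That interval does not reach the decrease of Syt7. Within the animals the log2 differences were 0.21, 0.09 and 0.28 for Syt11 and 0.016, 0.012 and 0.049 for Syt13, all above 0.

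Without regard to the adjusted p, the groups before scaling did not overlap for 3 of the 8 genes, of which Syt7 and Syt4 were lower and Syt11 higher. Of all names tested, 9.23% were lower and 18.5% were higher without overlap before scaling. The median log2 fold change over all names was 0.04 without scaling and 0.00 with it.

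**Figure D2:**
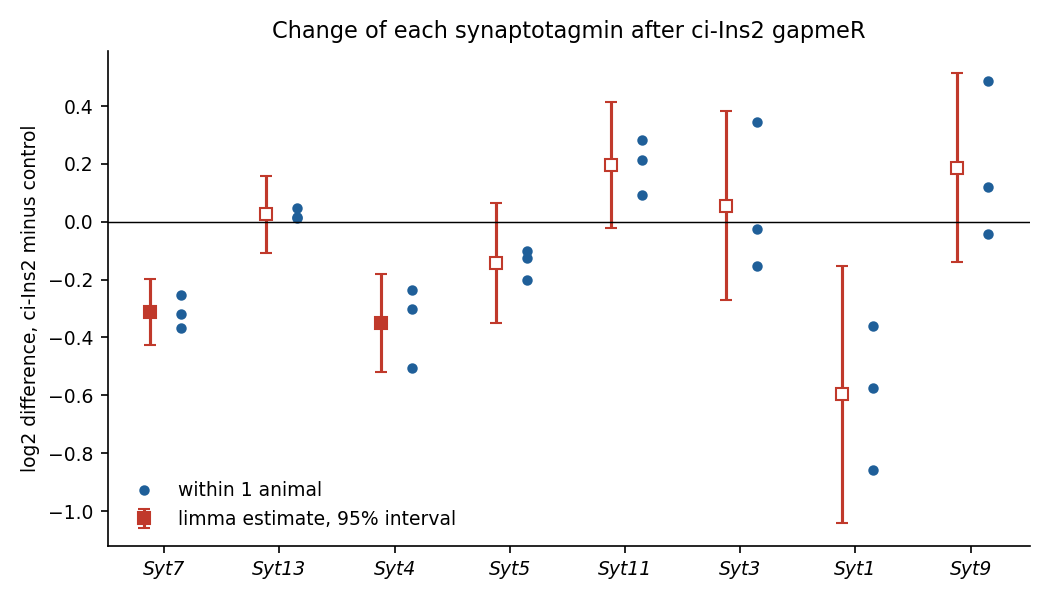
Log2 difference of each gene, ci-Ins2 minus control gapmeR cells, on log2(value + 1). Squares are limma estimates with 95% intervals, filled where the adjusted p is under 0.05 (Syt7 at −0.31 and Syt4 at −0.35); blue points are the differences within each of the 3 animals, which lie below 0 in every animal for Syt7, Syt4, Syt5 and Syt1 and above 0 in every animal for Syt11 and Syt13.

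The order of the levels was the same by the means of both groups for the 6 most abundant genes, from Syt7 through Syt13, Syt4, Syt5 and Syt11 to Syt3, and in that stretch no neighbouring genes overlapped within a group. Syt1 and Syt9 came last and overlapped in ci-Ins2 gapmeR cells. In control gapmeR cells Syt7 stood above 98.4% of all names tested, Syt13 above 95.8%, Syt4 above 93.6% and Syt5 above 86.8%. Syt11 stood above 56.4%, and Syt3, Syt1 and Syt9 above 30.6%, 18.0% and 8.69%. Summed over the 8 genes, the abundance was 1069, 1028 and 1021 units in ci-Ins2 gapmeR cells, against 1172, 1141 and 1185 units in control gapmeR cells. The sums did not overlap (exact permutation test, two-sided, p = 0.1, the smallest that 3 against 3 libraries allow). The 8 genes made up 90.4% to 93.2% of the abundance of all 17 genes named Syt and a number.

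A share within this sum does not depend on scaling between libraries. Syt7 took 48.5%, 50.03% and 48.3% of it in ci-Ins2 gapmeR cells, against 51.7%, 53.8% and 52.1% in control gapmeR cells. Syt13 took 28.0%, 25.8% and 27.5% in ci-Ins2 gapmeR cells, against 24.8%, 22.1% and 22.3% in control gapmeR cells. The mean share differed by −3.59 percentage points for Syt7 and by 4.08 points for Syt13, ci-Ins2 minus control gapmeR cells, and the groups overlapped for neither. The shares of a library add up to the whole, so that a smaller share of Syt7 comes with larger shares elsewhere. As an abundance, Syt13 had a log2 fold change of 0.03 and did not pass (limma, adjusted p = 0.84). The share of Syt4 averaged 13.5% ± 0.20 in ci-Ins2 gapmeR cells and 14.9% ± 1.11 in control gapmeR cells (SD, n = 3 each), a difference of −1.40 points that was −0.77 points without control replicate 3. The shares of Syt4, Syt11 and Syt9 did not overlap between the groups either, and those of Syt5, Syt3 and Syt1 did. For each share without overlap the exact permutation test gave p = 0.1, two-sided, which cannot be lower in this design.

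Syt7 is spliced into many forms that differ in the linker between its membrane anchor and its C2 domains, and the table lists 8 transcripts of it. Of these 5 were lower in ci-Ins2 gapmeR cells (limma, adjusted over all 19074 transcripts tested, with 4.36% of them lower and 1.03% higher), and none was higher. Before scaling, all 8 were lower without overlap between the groups, as were 10.3% of all transcripts tested, while 17.7% were higher without overlap. Their log2 fold changes were close together, from −0.34 to −0.28, and with the animal as a block all 8 passed, against 11.2% of all transcripts lower and 5.4% higher. ENSRNOT00000036283 and ENSRNOT00000036232 also passed without scaling and in 4 of the 6 fits without 1 library. The other 3 called transcripts of Syt7 passed in none of these. The most abundant transcript, ENSRNOT00000036283, had 108, 107 and 106 abundance units in ci-Ins2 gapmeR cells, against 129.8, 131 and 133 units in control gapmeR cells. Its log2 fold change was −0.34 (standard error 0.046, limma, adjusted p = 0.010). The least abundant, ENSRNOT00000036168, had 18.1, 19.2 and 18.1 units in ci-Ins2 gapmeR cells, against 21.0, 22.1 and 22.9 units in control gapmeR cells (limma, adjusted p = 0.065). The estimates for the 8 forms were thus of similar size, although 3 of them did not pass the test without the block. The share of ENSRNOT00000036283 in Syt7 was 20.8% to 21.4% in ci-Ins2 gapmeR cells and 21.4% to 21.5% in control gapmeR cells.

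The 8 values of Syt7 are not 8 separate measurements. The forms share most of their sequence, and RSEM divides the reads among them. The ratio of ENSRNOT00000036180 to ENSRNOT00000007429 was between 1.203 and 1.205 in the 6 libraries, a spread of 0.19%, and with ENSRNOT00000035576 this set of 3 kept its ratios within 0.40%. For ENSRNOT00000036283 and ENSRNOT00000036232 the spread was 2.04%, and among the other pairs it reached 20.7%. Whether single forms of Syt7 changed more than others was not tested. When Syt7 was taken as its most abundant transcript in place of the sum, its log2 fold change was −0.34 (limma, adjusted p = 0.011). Syt4, Syt5, Syt9, Syt11 and Syt13 have 1 transcript each in the table, so that their value per gene and per transcript is the same.

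**Figure D3:**
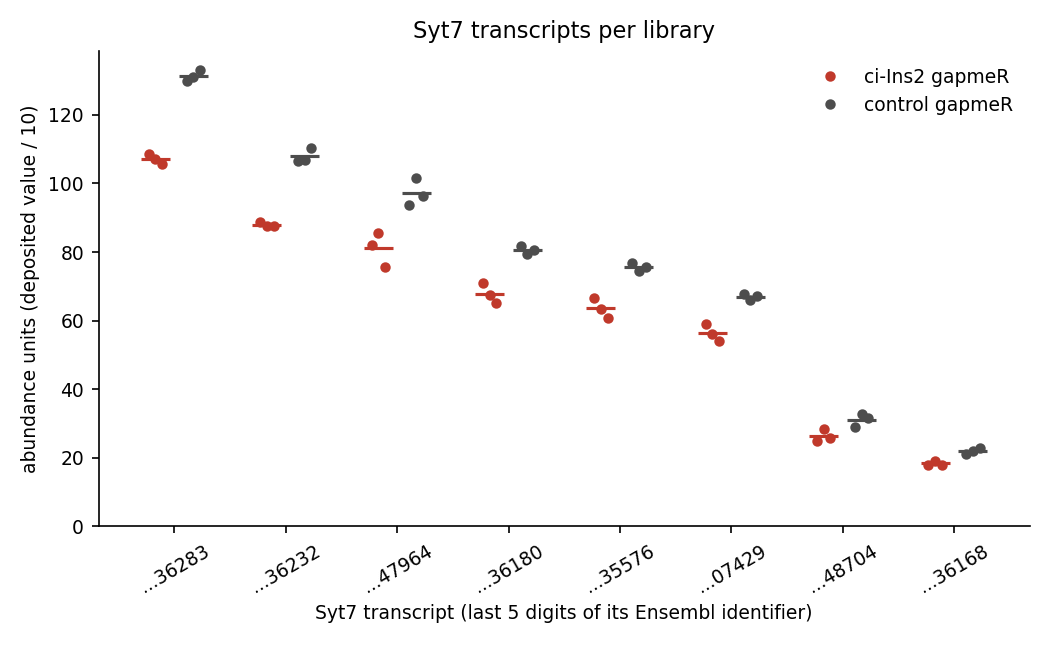
Abundance of the 8 Syt7 transcripts in each library, in abundance units on an axis from 0, ordered by level. Red points are ci-Ins2 gapmeR libraries and grey points control gapmeR libraries, with a line at each mean; each transcript lies lower in red, with 5 of the 8 past the test, from 107 against 131 units for the most abundant to 18.4 against 22.0 units for the least abundant.

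The remaining synaptotagmins and their partners were taken from lists. Of 9 other genes named Syt, 4 passed the filter on low values and none was lower or higher. Among these Syt17, which belongs to the synaptotagmin family but has no membrane anchor, had 89.5 ± 9.16 units in ci-Ins2 gapmeR cells and 86.7 ± 12.6 units in control gapmeR cells (SD, n = 3 each). Of 8 genes of synaptotagmin-like proteins and extended synaptotagmins, 7 were tested and none passed. Their median log2 fold change was 0.20, against 0.00 over all names. The most abundant, Sytl4, encodes granuphilin, which links Rab27 on insulin granules to the plasma membrane. It had 440.8 ± 13.5 units in ci-Ins2 gapmeR cells and 368 ± 9.36 units in control gapmeR cells (SD, n = 3 each), without overlap, and is named here after its value was seen, as are Syt17, Sytl5, Syt12, Pclo and Snap25. The log2 fold change of Sytl4 was 0.21 (standard error 0.045, limma, adjusted p = 0.051), just outside the threshold. It passed in the blocked fit (adjusted p = 0.021) and without scaling (adjusted p = 0.033), and leaving out 1 library gave up to 0.17. With the block Sytl5 (adjusted p = 0.035) and Syt12 (adjusted p = 0.018) passed as well, toward higher values, as did 5.23% of all names.

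Among other C2-domain sensors and factors that prime granules for fusion, 9 of 15 genes passed the filter. Of these 9, Unc13a, Cadps and Rims2 were lower and none was higher, beside 3.5% lower and 1.01% higher over all names, with a median log2 fold change of −0.16 over the 9. Unc13a, which encodes the priming factor Munc13-1, had 9.63 ± 0.62 units in ci-Ins2 gapmeR cells and 15.9 ± 1.07 units in control gapmeR cells (SD, n = 3 each). Log2 fold changes were −0.71 for Unc13a (limma, adjusted p = 0.0021), −0.67 for Cadps, which primes dense-core granules (adjusted p = 0.0040), and −0.53 for Rims2, a Rab3 effector at release sites (adjusted p = 0.018). Unc13a and Cadps passed in each of the 6 fits without 1 library and Rims2 in 1, that without control replicate 2. Pclo, a large C2-domain protein of release sites that the study counts among calcium sensors, had a log2 fold change of −0.37 and missed the threshold (limma, adjusted p = 0.051), with a blocked adjusted p of 0.0069, in the fit that had 10.3% of all names lower. Unc13a, Rims2 and Pclo were picked by the study on these libraries, and their direction has no independent support here. By qPCR, which is not part of these data, the study also reports altered levels of these genes in rat islet cells. It reports lower PCLO and UNC13A in human islet cells with either gapmeR against ci-INS. Of 15 SNARE proteins and regulators tested, the fusion machinery on which synaptotagmins act, none was lower or higher, with a median log2 fold change of 0.01. Snap25, the most abundant, had 326 ± 24.4 units in ci-Ins2 gapmeR cells and 334 ± 24.3 units in control gapmeR cells (SD, n = 3 each).

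**Figure D4:**
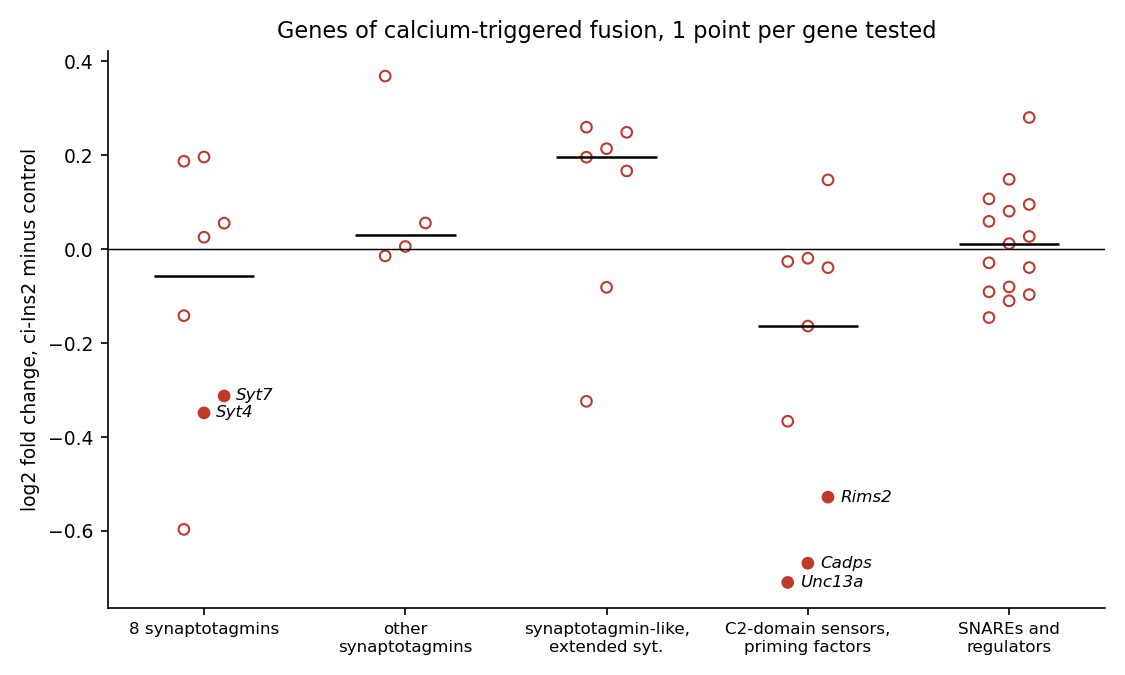
Log2 fold change, ci-Ins2 minus control gapmeR cells, of each gene tested in 5 lists, 1 point per gene, with a line at the median of each list. Filled points have an adjusted p under 0.05 and are named: Syt7 and Syt4 among the 8 synaptotagmins, and Unc13a, Cadps and Rims2 among C2-domain sensors and priming factors.

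Markers of other cells were set beside these results. Over all names tested 3.5% were lower and 1.01% higher, and in the blocked fit 10.3% were lower and 5.23% higher. Synaptotagmins are also neuronal genes. Of 5 neuronal markers Th, Prph and Nefl were under the filter and neither of the 2 tested passed, and the list summed to 58.5 to 67.0 units in ci-Ins2 gapmeR cells against 55.1 to 62.7 units in control gapmeR cells. Of 5 α-cell markers none passed (1 was higher in the blocked fit), with sums of 20165 to 26938 units in ci-Ins2 gapmeR cells against 21397 to 26873 units in control gapmeR cells. Most of the α-cell sum is Gcg. Of 6 duct-cell markers 4 were tested, and Sox9 and Cftr were under the filter. Krt19, Krt18 and Krt7 were higher, while Spp1 had a log2 fold change below 0 and did not pass. The duct-cell list had sums of 651 to 744 units in ci-Ins2 gapmeR cells against 506 to 580 units in control gapmeR cells. Of 7 macrophage and immune markers 6 were tested, none passed and 3 were lower with the block, with sums of 26.5 to 56.0 units in ci-Ins2 gapmeR cells against 39.0 to 68.6 units in control gapmeR cells. The 5 stromal markers all had log2 fold changes below 0 (median −0.43). None passed and 3 were lower in the blocked fit, with sums of 205 to 574 units in ci-Ins2 gapmeR cells against 290.5 to 670 units in control gapmeR cells. Of 4 endothelial markers tested none passed and 1 was lower in the blocked fit, with sums of 9.18 to 26.3 units in ci-Ins2 gapmeR cells against 13.2 to 31.4 units in control gapmeR cells. Of 4 δ-cell and PP-cell markers Rbp4 was higher (log2 fold change 0.54, limma, adjusted p = 0.0018, passing in each of the 6 fits without 1 library). The other 3 did not pass, and 1 of them, Sst, had a log2 fold change below 0 (−0.02, limma, adjusted p = 0.93). The δ-cell and PP-cell list had sums of 3317 to 4356 units in ci-Ins2 gapmeR cells against 2929 to 3965 units in control gapmeR cells. Of 4 acinar markers and 1 Schwann-cell marker tested none passed in either fit. No measured marker of these lists was at 0 in all libraries. The part of other cells in the synaptotagmin results was not tested.

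The genes whose log2(value + 1) followed Syt7 and Syt4 most closely over the 6 libraries were sought among 8090 named genes with a mean of at least 5 units. For Syt7 they were Vti1a (Pearson r = 0.998), Prpf6 (0.995) and Mbnl1 (0.992), all lower in ci-Ins2 gapmeR cells. That direction goes with the choice, since the genes were picked to follow Syt7, which was lower itself. For Syt4 they were Bace1 (0.995), Orc5 (0.987) and Atad1 (0.985), none of which passed the test. With 6 libraries that share animals and 2 treatments such values are a description and are given without a p.

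In the mouse islet table, which the authors made from libraries of another study, 4 of 15925 circular RNAs have a host among the 8 genes. They come from Syt9 and Syt11, and 6 of the genes, among them Syt7 and Syt4, have none in it. All 4 are of the exon class, as are 92.2% of the table, and 3 of them are also in circBase. Positions are as the authors list them, and the mouse build of this table itself is not stated. The circRNA of Syt11, circ_06650, lies at 88761725 to 88762549 on the minus strand of chromosome 3 and spans 825 bases. The 3 circRNAs of Syt9 lie on the plus strand of chromosome 7. Of these circ_05258 and circ_13563 share their start at 107425046 and end at 107436821 and 107425398, which are spans of 11776 and 353 bases. The third, circ_09257, runs over 4527 bases and ends at 107506618.

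As the authors' mean of normalized junction reads, circ_06650 of Syt11 has 4.46, circ_09257 of Syt9 has 2.99, circ_05258 has 2.86 and circ_13563 has 1.43. The median of the whole table is 2.99, and 61.7% of its entries lie below circ_06650. None of the 4 reaches a mean of 5, as 34.2% of the table do. These means carry no replicate error, and they come from mouse islets of another experiment. Among related genes the highest circRNA mean is 561 for Syt14 (6 circRNAs), 231 for Esyt2 (8 circRNAs), 133 for Sytl4 (8 circRNAs) and 97.1 for Sytl5 (12 circRNAs). It is 4.503 for Syt16 (6 circRNAs) and 2.08 for Syt17 (1 circRNA), near the means of the 4 described here.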

How the data were processed

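RNA of rat islet cells was sequenced as stranded mRNA libraries, single end. Mapping to the Ensembl transcriptome of the rat (rn6) was done by the authors with STAR 2.5.3a, and RSEM 1.3.0 gave the transcript values. The deposited values are a relative signal per transcript whose total is equal in all libraries and 10 times what TPM would give. No source names the unit, and depth cannot be read from it. For the circRNA table the authors ran CIRI2 and find_circ, and only its deposited mean signal was used here. Its 6 columns of single samples of another study were not used. The authors' own lists of changed genes and pathways (fold changes and p-values from HISAT2, HTSeq, DESeq2 and DAVID) were not used.

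Values were divided by 10 and summed per gene name. Names with at least 1 in 3 or more libraries were scaled by median-of-ratios size factors and tested with limma 3.58.1 (R 4.3.3) with its mean-variance trend on log2(value + 1), ci-Ins2 minus control, and p-values were adjusted by Benjamini-Hochberg over all tested genes, with a threshold of 0.05. Transcripts were tested likewise. The steps were tested on simulated data. Shares were compared by an exact permutation test. Python 3.11.15 with pandas 2.3.3, scipy 1.17.1 and matplotlib 3.10.9 made the remaining tables and the figures.

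Equal replicate numbers mark paired libraries, because by the study's account all groups of a replicate came from the same animal. Deviations from the group means correlated at 0.462, 0.493 and 0.419 for equal numbers and at −0.266 to −0.157 for different numbers. The deviations of 3 libraries from their mean add up to 0, so the negative values follow from the positive ones and are not separate support.

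The members, lists and tests were chosen with earlier results of these data known. Named were the 8 members, at most 6 called genes of each list, the 3 genes most like Syt7 and Syt4, all circRNAs of member hosts, and genes said to be named after their values were seen. Alternatives were a replicate block, other added constants, filters and scalings, no trend, the most abundant transcript, another denominator for shares, a minimum circRNA mean, and each library left out.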

Additional observations from a re-analysis of the deposited data

How the results depend on the processing

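The fold changes of Syt7 and Syt4 stayed negative under each alternative, and Syt7 kept its call in all alternatives but 5 of the 6 that leave out a library. Of the 8 genes, 1 was lower (Syt7) without a filter, without scaling, with the total without the 20 most abundant genes as the scale and without the mean-variance trend, and between 0 and 1 without 1 library; Syt4 was lost in each of these. With the replicate block, 3 were lower, and 1428 lower and 729 higher genes were called in all. The block changed no other call among the 8. Leaving out 1 library gave 187 to 309 lower and 35 to 73 higher genes, and no filter gave 93 higher genes. Among the 17 transcripts of these genes 6 were called lower, against 11 with the replicate block, 2 without scaling and between 0 and 2 without 1 library. Over all transcripts 2129 were lower and 1030 higher with the block, and 277 to 486 lower and 51 to 104 higher without 1 library. The log2 fold change of Syt3 turned to −0.000300 with the most abundant transcript and without 1 library spanned −0.0199 to 0.18. That of Syt13 without 1 library spanned −0.00435 to 0.0617. No circRNA of these hosts was left (0 of 4) at a mean of at least 5. With all Syt genes as the denominator and without each library, the difference in share of each gene moved by less than its larger group SD. Some moves were above the smaller group SD. Without control replicate 3 the difference of Syt4 was −0.77 points, against −1.40 (SD 0.20 in ci-Ins2 gapmeR cells and 1.11 in control gapmeR cells). Without ci-Ins2 replicate 2 that of Syt5 was −0.045 points, against 0.35. The values hold no depth, so the precision that depth gives is unknown, and a group left with 2 libraries was given the spread pooled over both groups.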
